A study of Mus musculus with 9 samples.

Results

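The genes described here are 41 cytokines and chemokines, the secreted and membrane-shed signals by which tumor cells act on leukocytes, stroma and each other, among 19938 genes measured in 9 lines of 4T1, a mouse mammary carcinoma. The 41 were named as a list of gene symbols and all 41 were on the array, each represented by its probe set with the highest mean. The 3 origins were compared, with 3 lines each: lines labelled 4T1-BM2, re-derived from brain metastases, lines labelled 4T1-LM2, re-derived from lung metastases, and lines labelled 4T1-T2, re-derived from primary tumors. Each line came from its own mouse, was expanded and frozen, and all were thawed, cultured and extracted side by side, and the labels name no treatment. The 3 lines of an origin share a line name, and what else they share is not given in the labels. The lines were grown in culture, so the values are those of carcinoma cells away from the brain, lung or mammary tissue, and they are RNA levels, not secreted protein.

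Chemokines bind receptors coupled to G proteins and steer leukocyte movement. CXC chemokines with an ELR motif draw neutrophils through CXCR2, CXCL9, CXCL10 and CXCL11 draw T cells through CXCR3, and CCL2 draws monocytes through CCR2. Colony-stimulating factors drive growth and survival of myeloid cells, and 4T1 tumors are known for a granulocyte expansion in the host that G-CSF contributes to. Interleukins of the IL-6 family signal through gp130 and STAT3, those of the IL-1 family through MyD88 and NF-kB, and TRAIL, the product of Tnfsf10, can trigger death receptors.

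The deposited values are RMA log2 intensities on a Mouse Gene ST array, on which a step of 1 is a doubling of signal. The arrays were close to each other, with medians of 5.06 to 5.19 and correlations between lines of 0.99 to 0.9976. Brain line 3 and lung line 1 had the widest spread around the gene medians (interquartile range 0.178 and 0.164, against 0.0886 to 0.126 on the other arrays), so results are also given without them where that ends a call. A gene was taken as above background in a line when its value exceeded the median of the 12147 probe sets without a gene symbol on the same array, which lay at 4.10 to 4.30. This is a lenient level, since as many of the unnamed probe sets lie above it as below it. Markers of carcinoma epithelium were above background in all lines for 9 of 10 genes, and their mean level was 9.84 to 10.04 in brain lines, 9.06 to 9.45 in lung lines and 9.15 to 9.47 in primary lines. Krt14 passed the test as higher in brain lines in both comparisons, Cdh1 against primary lines and Cldn7 against lung lines. The leukocyte marker Ptprc, the macrophage markers Adgre1 and Aif1, the fibroblast marker Dcn, the astrocyte marker Aqp4 and the lung marker Scgb1a1 were not above background in any line, and no neutrophil marker of 7 was above it in all lines. Leukocyte markers averaged 4.96 to 5.11 in brain lines, 4.93 to 4.99 in lung lines and 4.77 to 4.96 in primary lines, and 1 of these 6, the integrin chain gene Itgb2, was higher in brain than in primary lines (log2 change 1.12 ± 0.23, adjusted p = 0.0301). Above background in all lines were 3 of 6 leukocyte, 4 of 10 macrophage, 1 of 5 lymphocyte, 5 of 9 fibroblast, 2 of 7 endothelial, 5 of 9 brain cell and 4 of 6 lung epithelium markers. Above the 75th percentile of the unnamed probe sets in all lines were 1 leukocyte, 1 fibroblast and 1 endothelial marker, and none of the macrophage, neutrophil, lymphocyte, brain cell or lung epithelium lists. No marker of macrophages, neutrophils, lymphocytes, fibroblasts, endothelium, brain cells or lung epithelium passed the test in either comparison. The part of these marker levels in the results below was not tested.

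By that level 25 of the 41 genes (61.0%, against 67.2% of all genes) were above background in all 9 lines, 7 in some lines and 9 in none. Each line had 26 to 31 of the 41 above background. Above the 75th percentile of the unnamed probe sets in all 9 lines were 13 genes (31.7%, against 43.9% of all genes), and above their 90th percentile only Csf1, Tslp and Mif (7.32%, against 14.3% of all genes). So most of the listed cytokine transcripts were detected by the lenient level, and the share was close to or below that of genes in general.

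**Figure D1:**
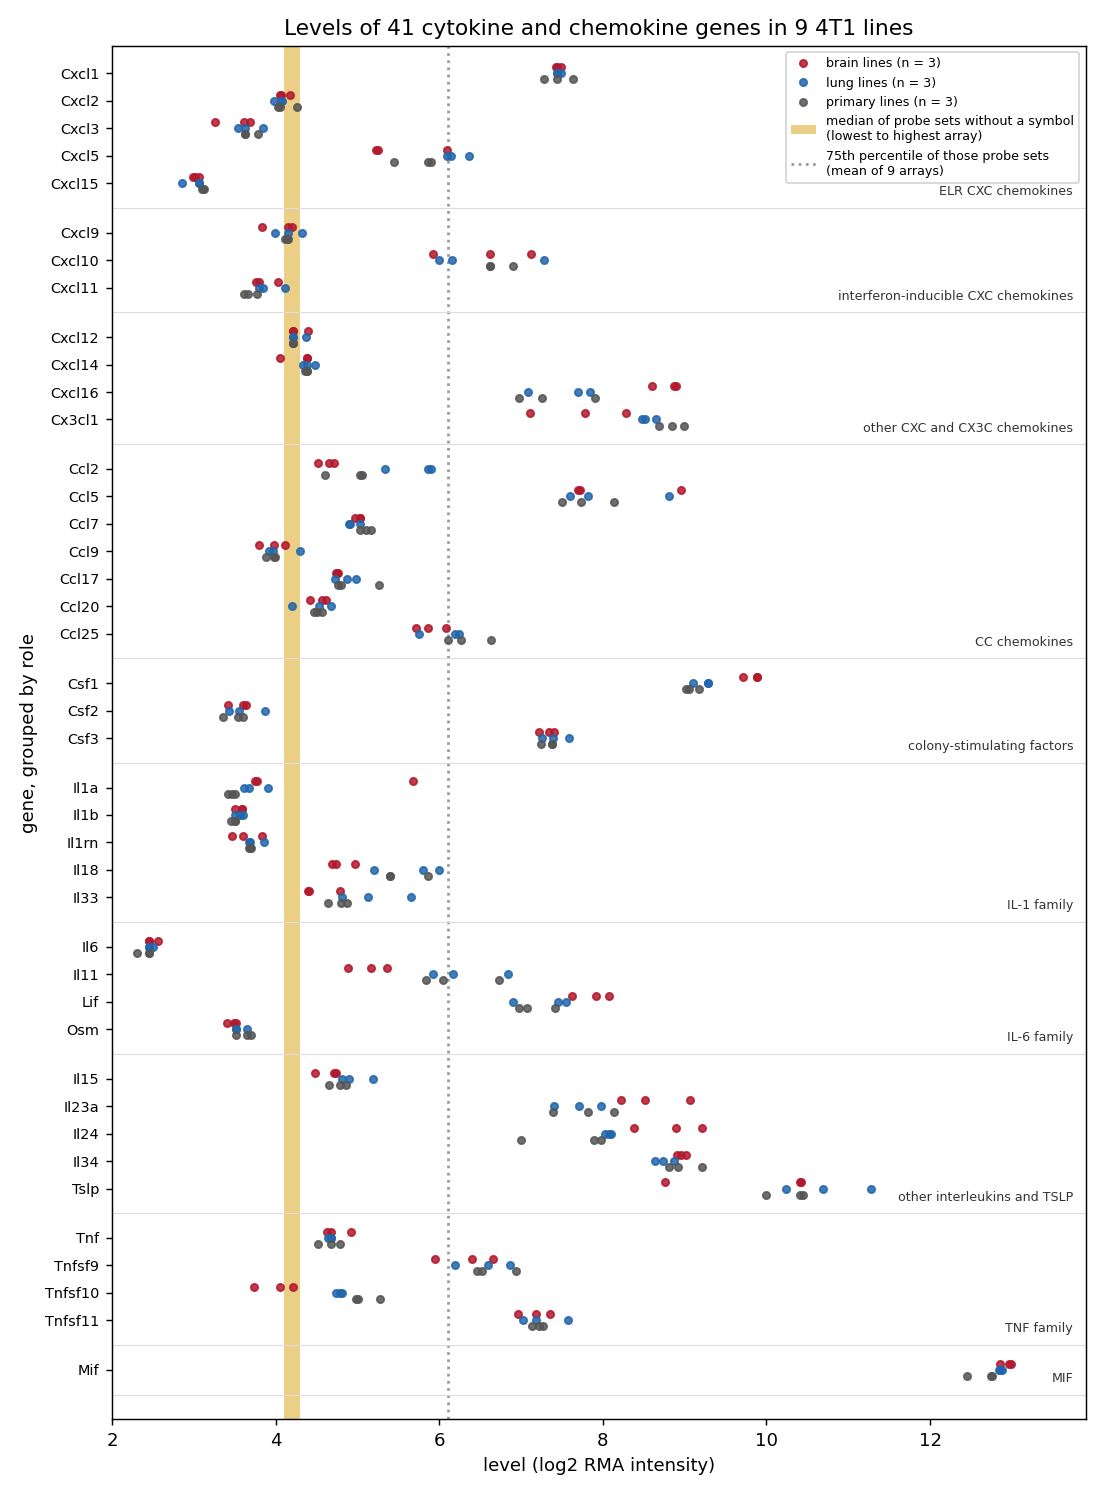
RMA log2 level of each of the 41 cytokine and chemokine genes in the 9 lines, grouped by role, as 1 point per line. The yellow band spans the 9 array medians of the probe sets without a symbol and the dotted line is the mean of their 75th percentiles, beyond which 13 genes lie in all 9 lines.

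By role, 2 of 5 ELR chemokines were above background in all lines. Cxcl1 had 7.43, 7.49 and 7.42 in brain lines, 7.49, 7.43 and 7.43 in lung lines and 7.63, 7.43 and 7.28 in primary lines. Cxcl1 was thus nearly level over the 9 lines, with the same value on 4 arrays. Cxcl5, which also acts through CXCR2, had 5.22 to 6.10 in brain lines, 6.10 to 6.36 in lung lines and 5.45 to 5.89 in primary lines. Cxcl2, Cxcl3 and Cxcl15 were in no line above background, with highest values of 4.26, 3.84 and 3.12. Cxcl15, Cxcl1, Cxcl2 and Cxcl3 lie in 1 cluster on chromosome 5 (RefSeq, GRCm38.p6), in the order Cxcl3, Cxcl15, Cxcl1 and Cxcl2 with no other coding gene between them. The sequences upstream of Cxcl1 and Cxcl2 are shown because these neighbours differed in detection while both hold the same NF-kB type letters. They are the 250 bases before the start at chr5:90890995-90891244 (plus strand) and chr5:90903649-90903898 (plus strand) of GRCm38.p6, from RefSeq, 5′ to 3′, with matches on either strand to a common form of the NF-kB site (GGG, any 3 bases, then TTCC) in capitals.
Cxcl1: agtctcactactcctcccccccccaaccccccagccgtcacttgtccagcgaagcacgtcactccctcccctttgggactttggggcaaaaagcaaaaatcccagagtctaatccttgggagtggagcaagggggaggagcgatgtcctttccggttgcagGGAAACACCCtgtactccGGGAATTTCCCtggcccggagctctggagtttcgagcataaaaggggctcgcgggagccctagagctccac
Cxcl2: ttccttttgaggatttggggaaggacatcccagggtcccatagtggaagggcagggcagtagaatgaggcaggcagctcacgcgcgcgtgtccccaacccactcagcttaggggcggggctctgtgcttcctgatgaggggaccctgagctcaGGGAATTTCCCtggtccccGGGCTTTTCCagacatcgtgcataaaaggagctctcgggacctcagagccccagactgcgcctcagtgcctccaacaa
Counted from the start, the matches begin at positions -89, -71 and -70 in Cxcl1 and at -97, -96 and -78 in Cxcl2. The matches 1 base apart overlap, being both strands of the same stretch. The NF-kB letters were found in 5.56% of 32851 RefSeq promoters of 300 bases, and in those of 9 of the 27 listed genes that have an entry, namely Cxcl1, Cxcl2, Cxcl3, Cxcl10, Ccl9, Ccl20, Csf1, Il1rn and Il6. Of these 9, Cxcl1, Cxcl10 and Csf1 were above background in all lines, Ccl9 and Ccl20 in some and the other 4 in none. The 5.56% counts promoters, while a listed gene was counted if any of its promoters matched, and Il1rn has several. A match is a description of the letters and not a measured binding site.

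Among the interferon-inducible chemokines, Cxcl10 was above background in all lines, Cxcl9 in 2, at 3.84 to 4.33, and Cxcl11 in none, at 3.62 to 4.11. Of the other CXC and CX3C chemokines, Cxcl16 and Cx3cl1 were above the 75th percentile in all lines. Cxcl12, a stromal chemokine that binds CXCR4, passed the level in 5 lines at 4.21 to 4.40, with the same value on 7 arrays, and Cxcl14 passed it in 8 lines at 4.05 to 4.48. Both lay close to the level itself. Of the CC chemokines, Ccl5 stood at 7.50 to 8.95, and Ccl25, a ligand of CCR9, at 5.71 to 6.63. Ccl2, Ccl7 and Ccl17, which draw monocytes or T cells, were above the median of the unnamed probe sets in all lines and above the 75th percentile in none. Ccl17 stood at 4.73 to 5.26. Ccl20, a ligand of CCR6, passed the lower level in 8 lines at 4.20 to 4.68, and Ccl9, a myeloid chemokine, in lung line 3 alone, at 4.30 there and 3.80 to 4.12 in the others.

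Of the colony-stimulating factors, Csf1 (M-CSF) and Csf3 (G-CSF) were detected in all lines and Csf2 (GM-CSF), at 3.36 to 3.87, in none. Csf3 had 7.22, 7.40 and 7.34 in brain lines, 7.26, 7.39 and 7.59 in lung lines and 7.25, 7.38 and 7.38 in primary lines, so the origins overlapped. Its log2 change was -0.01 in brain against primary lines (95% confidence interval -0.23 to 0.20, adjusted p = 0.973) and -0.09 in brain against lung lines (-0.31 to 0.12, adjusted p = 0.723). Il34, the other ligand of the M-CSF receptor, stood at 8.90 to 9.02 in brain lines, 8.63 to 8.87 in lung lines and 8.80 to 9.21 in primary lines. The M-CSF receptor gene Csf1r itself had 4.09 to 4.26 and passed the level in 4 lines.

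Of the IL-1 family, Il18 and Il33 were above background in all lines, Il1a in brain line 2 alone, and Il1b and the antagonist gene Il1rn (3.47 to 3.86) in none. Of the IL-6 family, Lif and Il11 were above background in all lines, while Il6 (2.31 to 2.57) and Osm (3.41 to 3.70) were in none. All 5 of Il15, Il23a, Il24, Il34 and Tslp were above background in all lines. Il15, Il18, Il33 and Tnf were above the 75th percentile of the unnamed probe sets in no line. Of the TNF family, Tnf (4.52 to 4.92), Tnfsf9, which encodes the 4-1BB ligand (5.95 to 6.93), and Tnfsf11, which encodes RANKL (6.96 to 7.58), were above background in all lines. Mif, which encodes macrophage migration inhibitory factor, had 12.85, 12.97 and 12.99 in brain lines, 12.84, 12.87 and 12.85 in lung lines and 12.45, 12.76 and 12.75 in primary lines. The brain lines of Mif overlapped the lung lines and lay above the primary lines, and its log2 change against primary lines did not pass (0.28 ± 0.09, adjusted p = 0.137). Its 2 other probe sets had log2 changes of 0.31 and 0.30.

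Brain lines differed from primary lines in 5 of the 41 genes (12.2%, against 3.13% of all genes at the same threshold, a limma adjusted p under 0.05 over all genes). Csf1, Cxcl16 and Il24 were higher in brain lines (3 genes, 7.32%, against 1.56% of all genes) and Cx3cl1 and Tnfsf10 were lower (2 genes, 4.88%, against 1.57% of all genes). The groups did not overlap in 13 of the 41 (31.7%, against 17.8% of all genes). Over all 41 the median log2 change was -0.04, against 0.00 over all genes, and the median size of the change was 0.16, against 0.09. Thus 36 of the 41 did not pass, and the changes ran in both directions. In RNA from whole cultures, fewer expressing cells and less RNA per cell cannot be told apart. Lines are the replicates, and 3 lines against 3 cannot give an exact permutation p under 0.1, so the tests are those of the model fitted across all genes.

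**Figure D2:**
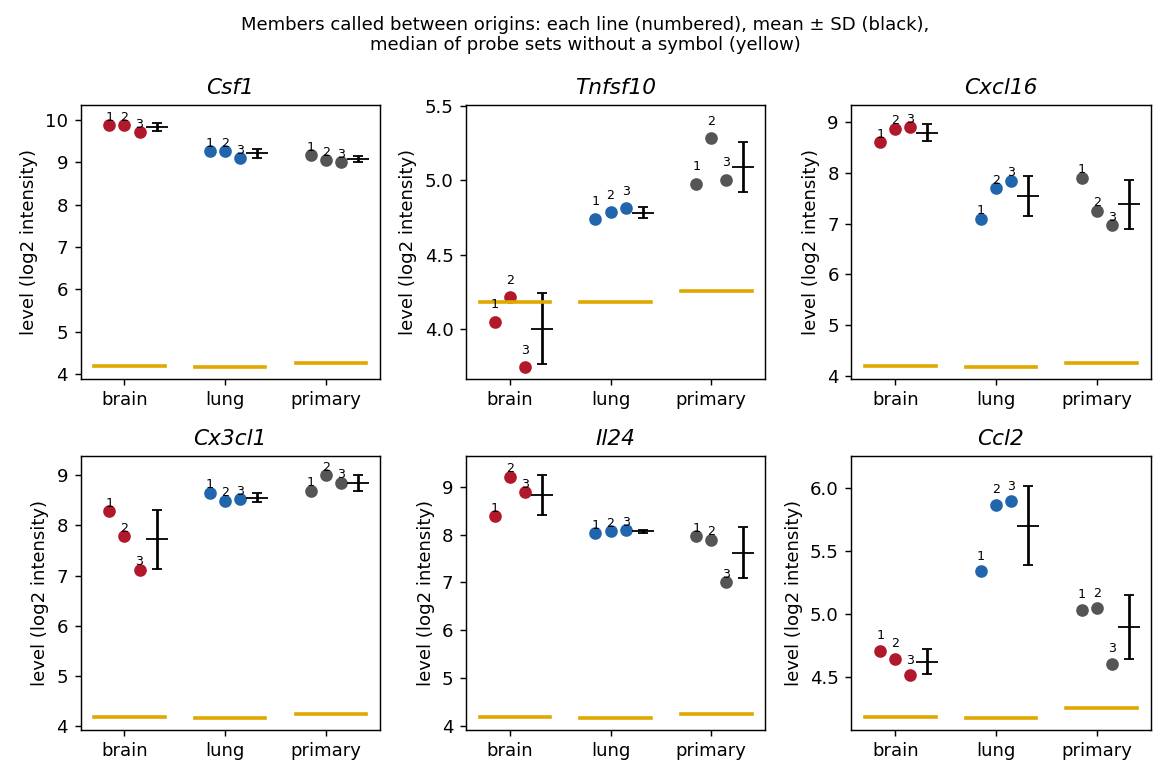
RMA log2 level in each line of the 6 genes that passed the test in brain against primary or brain against lung lines, one panel per gene, with numbered points for lines, black marks for the mean ± SD of each origin (n = 3) and yellow lines for the median of the probe sets without a symbol. The vertical axes do not start at 0. Csf1 and Cxcl16 are higher in all 3 brain lines than in any other line, and Tnfsf10 is lower in all 3.

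Csf1, the growth factor of macrophages and microglia, had 9.88, 9.89 and 9.72 in brain lines, 9.28, 9.28 and 9.10 in lung lines and 9.17, 9.06 and 9.02 in primary lines. All 3 brain lines stood above all 6 others, and lung and primary lines overlapped. Csf1 was 1.68-fold higher in brain than in primary lines (log2 change 0.75 ± 0.08 SE, adjusted p = 0.00256) and 1.53-fold higher than in lung lines (0.61 ± 0.08, adjusted p = 0.00899). Both calls were kept in all 17 alternative settings, with adjusted p of 0.00119 to 0.0240 against primary lines and 0.00579 to 0.0453 against lung lines. The letters upstream of Csf1 are shown because it was the one listed gene that passed as higher in brain lines in both comparisons under every setting. They are the 250 bases before the start, chr3:107760470-107760719 (minus strand) of GRCm38.p6, from RefSeq, 5′ to 3′, with the match to the NF-kB letters in capitals.
Csf1: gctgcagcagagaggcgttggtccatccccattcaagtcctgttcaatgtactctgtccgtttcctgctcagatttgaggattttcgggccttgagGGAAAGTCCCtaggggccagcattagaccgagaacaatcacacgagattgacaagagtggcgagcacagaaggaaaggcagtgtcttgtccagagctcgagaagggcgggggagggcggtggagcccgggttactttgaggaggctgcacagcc
The match lies at positions -154 to -145, on the strand opposite to the gene. Neither the letters of an interferon response element (GAAA, any 2 bases, then GAAA) nor those of an AP-1 site (TGANTCA) were found in the 300 bases searched.

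Cxcl16, a membrane-bound chemokine that is shed by ADAM10 and binds CXCR6, had 8.60, 8.87 and 8.90 in brain lines, 7.09, 7.70 and 7.85 in lung lines and 7.91, 7.25 and 6.97 in primary lines. The brain lines were again the highest 3 of 9, with the widest scatter among the others. Cxcl16 was 2.66-fold higher in brain than in primary lines (log2 change 1.41 ± 0.25, adjusted p = 0.0163) and 2.37-fold higher than in lung lines (1.25 ± 0.25, adjusted p = 0.0340). The call against primary lines was lost without brain line 2 (adjusted p = 0.0605), brain line 3 (0.0579), primary line 2 (0.0694) or primary line 3 (0.0526), and without brain line 3 and lung line 1 together (0.0570). It was also lost over every probe set as its own feature (0.0665) and in a fit of the 6 arrays alone (0.0563). Over all 17 settings its adjusted p ran from 0.00999 to 0.0694 and its log2 change from 1.21 to 1.68. The call against lung lines was kept without primary line 1 or 3 and lost without any 1 of the other 7 lines (adjusted p of 0.0274 to 0.115 over the 9), with line number as a block it was 0.0525, and without brain line 3 and lung line 1 it was 0.212. It was 0.120 over every probe set and 0.0552 with 6 arrays. Adam10 and Adam17, the genes of its known sheddases, were at 9.55 to 9.83 and 8.98 to 9.52, and Cxcr6 was not above background in any line.

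Cx3cl1 encodes fractalkine, a membrane-bound chemokine whose receptor CX3CR1 marks microglia and some monocytes. It had 8.28, 7.78 and 7.11 in brain lines, 8.64, 8.48 and 8.52 in lung lines and 8.68, 8.99 and 8.84 in primary lines. All brain lines were below all others, and they spread over more than 1 log2 unit. Cx3cl1 was 2.16-fold lower in brain than in primary lines (log2 change -1.11 ± 0.23, adjusted p = 0.0348). Against lung lines its log2 change was -0.82 ± 0.23 and did not pass (adjusted p = 0.121). Among the settings that leave out 1 line, the call against primary lines was kept without brain line 1 or brain line 3 and lost without any of the other 7, lung lines included, with adjusted p of 0.0112 to 0.121. Without brain line 3 and lung line 1 together its log2 change was -0.81 (adjusted p = 0.0610), and the call was lost over every probe set (0.113) and in a fit of the 6 arrays alone (0.143). Ccl17, its neighbour on chromosome 8, had a log2 change of -0.19 (95% confidence interval -0.47 to 0.09).

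Il24, a member of the IL-10 family that signals through receptors holding IL-20RB, had 8.38, 9.21 and 8.89 in brain lines, 8.03, 8.07 and 8.09 in lung lines and 7.97, 7.89 and 7.0 in primary lines. The 3 origins did not overlap, with brain lines highest and primary line 3 the lowest of all. It was 2.31-fold higher in brain than in primary lines (log2 change 1.21 ± 0.26, adjusted p = 0.0383) and did not pass against lung lines (0.76 ± 0.26, adjusted p = 0.189). The call against primary lines was kept without brain line 1 and lost without any 1 of the other 8 lines, with adjusted p of 0.0319 to 0.117, and its log2 change ran from 0.90 to 1.43. Without brain line 3 and lung line 1 together its adjusted p was 0.166, over every probe set 0.119 and in a fit of the 6 arrays alone 0.151.

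Tnfsf10, the gene of TRAIL, had 4.05, 4.21 and 3.74 in brain lines, 4.74, 4.79 and 4.81 in lung lines and 4.98, 5.28 and 5.0 in primary lines. All 3 brain lines were below all 6 others, and every lung line was below every primary line. It was above background in brain line 2 and in all lung and primary lines. Since the mean of the brain lines, 4.00, lies under that of the probe sets with no symbol, whose median is 4.21, no fold is given. Tnfsf10 was lower in brain than in primary lines with an adjusted p of 0.00271, which held in all 17 settings (0.00153 to 0.0377), and lower than in lung lines with an adjusted p of 0.0175. Leaving out lung line 1 (0.0588), lung line 2 (0.0800) or lung line 3 (0.0619) ended the call against lung lines, as did analysis without brain line 3 and lung line 1 together (0.0854), over every probe set (0.0668) and in a fit of the 6 arrays alone (0.0526).

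Brain lines differed from lung lines in 4 of the 41 genes (9.76%, against 1.98% of all genes). Cxcl16 and Csf1 were higher (2 genes, 4.88%, against 0.913% of all genes) and Ccl2 and Tnfsf10 lower (2 genes, 4.88%, against 1.07% of all genes). The groups did not overlap in 14 of 41 (34.1%, against 16.9% of all genes). The median log2 change was -0.06 over the 41 and -0.01 over all genes, and its median size 0.11 against 0.09. Both comparisons use the same 3 brain lines, so the 3 genes named in each are not independent observations. In the F test over the 3 origins, Cxcl16, Ccl2, Csf1 and Tnfsf10 passed (9.76%, against 2.36% of all genes).

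Ccl2, the monocyte chemoattractant, had 4.71, 4.65 and 4.52 in brain lines, 5.34, 5.87 and 5.90 in lung lines and 5.04, 5.05 and 4.61 in primary lines. The lung lines were the highest 3 of 9, and brain and primary lines overlapped. It was 2.11-fold lower in brain than in lung lines (log2 change -1.08 ± 0.16, adjusted p = 0.0146), and its log2 change in brain against primary lines was -0.27 (95% confidence interval -0.64 to 0.09, adjusted p = 0.493). Leaving out lung line 2 (adjusted p = 0.0768) or lung line 3 (0.0574) ended this call, as did testing every probe set as its own feature (0.0639). Ccl2 was above the median of the unnamed probe sets in all lines and never above their 75th percentile, so it is a dim gene on these arrays. Its neighbour Ccl7, which binds the same receptor, stood at 4.97 to 5.04 in brain lines, 4.89 to 5.04 in lung lines and 5.04 to 5.16 in primary lines, with a log2 change of 0.07 in brain against lung lines (-0.08 to 0.22).

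**Figure D3:**
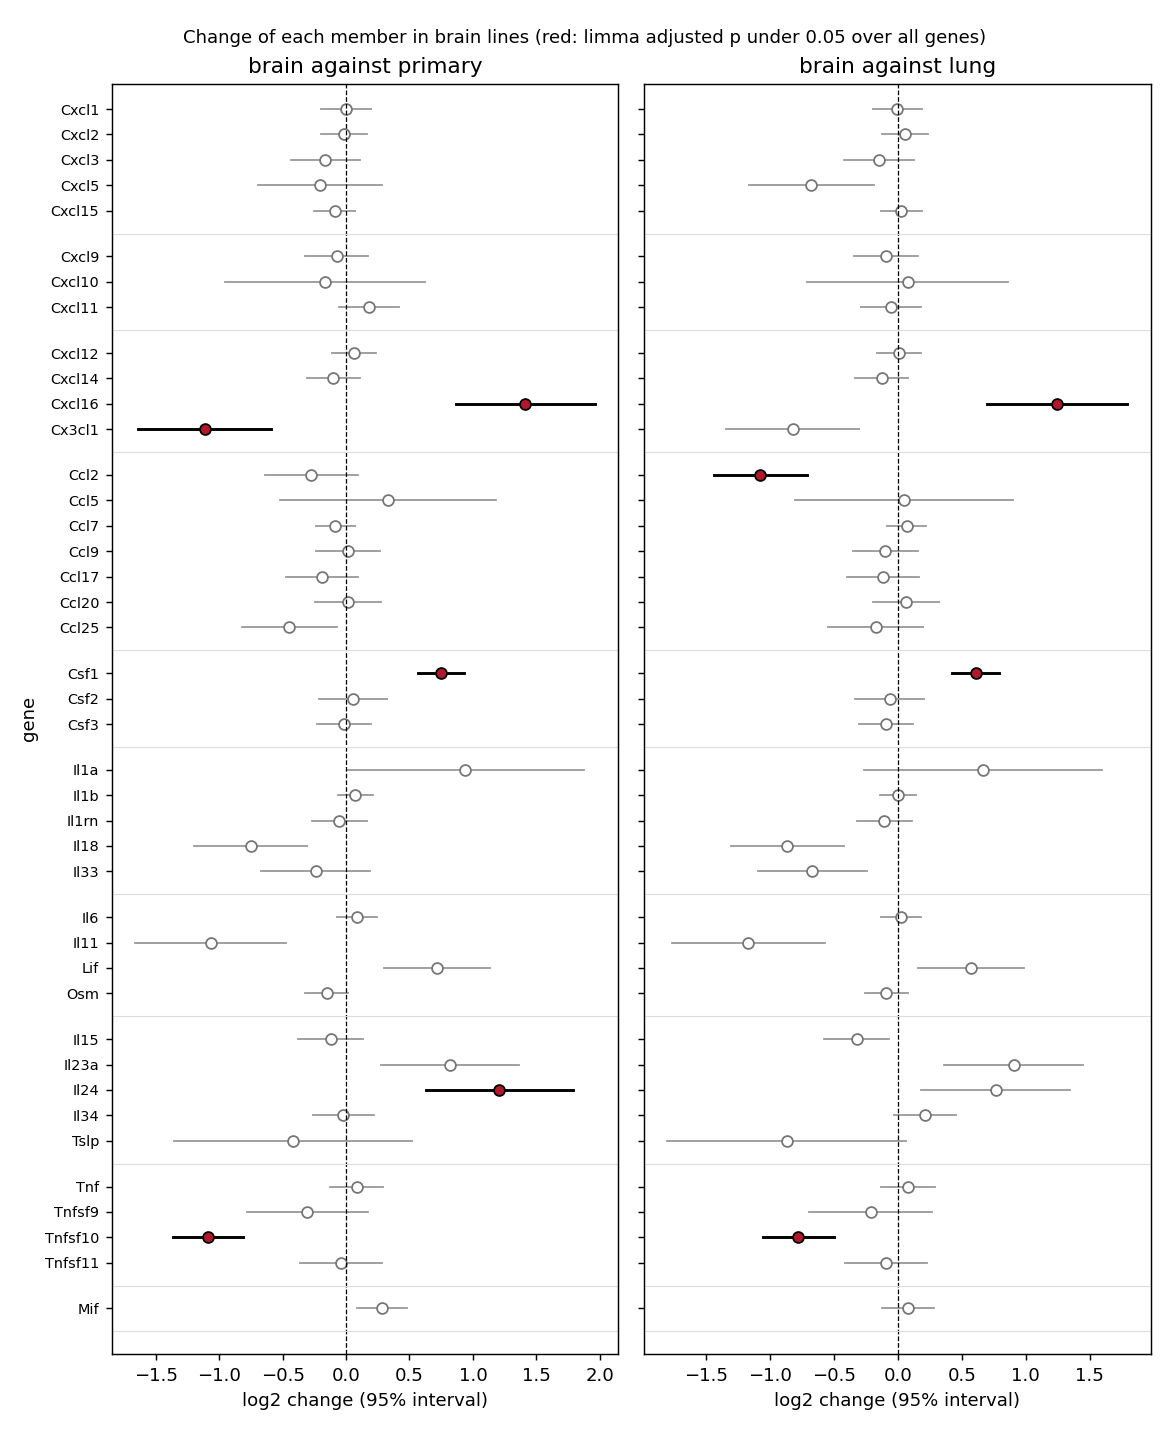
Log2 change with its 95% confidence interval for each of the 41 genes, against primary lines in the left panel and against lung lines in the right one, with positive values where brain lines are higher. Red points are genes with a limma adjusted p under 0.05, of which there are 5 on the left and 4 on the right.

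**Figure D4:**
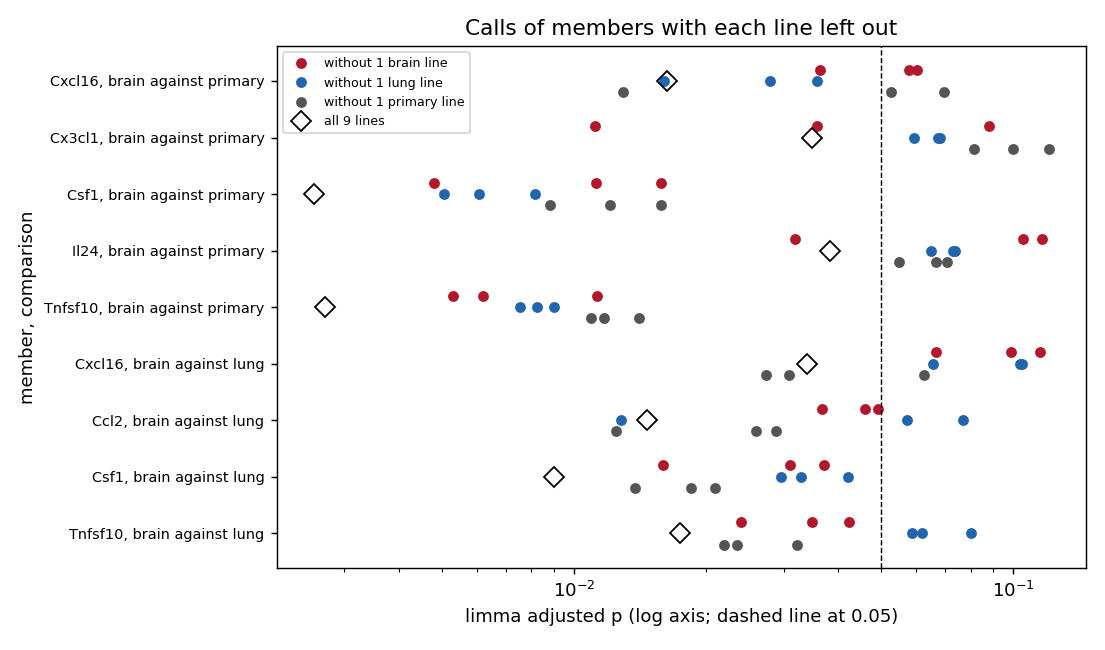
Limma adjusted p on a log axis for each called gene, with each of the 9 lines left out in turn (points, coloured by the origin of that line) and with all 9 (diamonds), and a dashed line at 0.05. Csf1 in both comparisons and Tnfsf10 in brain against primary lines stay left of the dashed line, while the other calls cross it for some lines.

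None of the 41 genes passed in lung against primary lines by limma, and none of all genes did (0%). At an unadjusted p under 0.05 there were 6 of 41 (14.6%, against 4.74% of all genes), namely Cxcl11, Ccl2, Ccl7, Il33, Tnfsf10 and Mif. The largest of these was Ccl2, with a log2 change of 0.80 ± 0.16 (adjusted p = 0.975). The groups did not overlap in 9 of 41 (22%, against 8.71% of all genes). The median size of the change was 0.12, against 0.07 over all genes. Lung and primary lines were thus not told apart by the test in any listed gene.

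Several of the genes that did not pass had brain lines outside the range of the others. Il11, a gp130 cytokine known from bone metastasis of human breast carcinoma lines, had 4.89, 5.17 and 5.37 in brain lines, 5.93, 6.84 and 6.17 in lung lines and 5.84, 6.73 and 6.05 in primary lines. Every brain line was below every other line, and the log2 change was -1.07 ± 0.27 against primary lines (adjusted p = 0.0661) and -1.17 ± 0.27 against lung lines (adjusted p = 0.0605). Il18, an IL-1 family cytokine that acts on T and NK cells, had 4.73, 4.97 and 4.69 in brain lines, 5.20, 5.80 and 5.99 in lung lines and 5.39, 5.39 and 5.86 in primary lines. It too was lowest in the 3 brain lines, with log2 changes of -0.75 ± 0.20 (adjusted p = 0.0809) and -0.86 ± 0.20 (adjusted p = 0.0616). With line number as a block, Il11 and Il18 passed against lung lines (adjusted p = 0.0134 and 0.0339). Both also passed there without dim genes, Il11 with another variance prior or without primary line 2, and Il18 without lung line 1. Against primary lines both passed with the block, Il11 also without dim genes and Il18 also without lung line 1. Neither passed in the other settings.

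Lif, a gp130 cytokine of stem cells and stroma, had 7.62, 8.08 and 7.92 in brain lines, 6.90, 7.45 and 7.55 in lung lines and 7.07, 6.98 and 7.42 in primary lines. Il23a, the p19 subunit of IL-23, had 8.22, 8.52 and 9.07 in brain lines, 7.40, 7.71 and 7.98 in lung lines and 7.82, 7.40 and 8.14 in primary lines. In both genes all brain lines lay above all others. The log2 changes of Lif were 0.72 ± 0.19 (adjusted p = 0.0743) against primary lines and 0.57 ± 0.19 (adjusted p = 0.174) against lung lines. Against primary lines Lif passed with line number as a block, after quantile normalization again or without lung line 1. Those of Il23a were 0.82 ± 0.24 (adjusted p = 0.115) and 0.91 ± 0.24 (adjusted p = 0.103). Both changes of Il23a passed with line number as a block (adjusted p = 0.0211 and 0.0204), and in no other setting. Osm, the neighbour of Lif on chromosome 11 and also a gp130 cytokine, was not above background in any line.

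Il33, an IL-1 family alarmin, had 4.79, 4.41 and 4.39 in brain lines, 5.13, 4.82 and 5.66 in lung lines and 4.80, 4.87 and 4.64 in primary lines. Brain lines lay below all lung lines and overlapped the primary lines, and the log2 change against lung lines did not pass (-0.67 ± 0.19, adjusted p = 0.123). Il15, a growth factor of NK and T cells, was at 4.48 to 4.74 in brain lines and 4.81 to 5.19 in lung lines, without overlap and without a call (-0.32 ± 0.11, adjusted p = 0.210). Ccl25 was at 5.71 to 6.08 in brain lines and 6.10 to 6.63 in primary lines, with log2 changes of -0.45 ± 0.17 (adjusted p = 0.215) in its brighter probe set and -0.20 ± 0.13 in the other.

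The neutrophil chemokines that were detected gave no call. Cxcl1 had a log2 change of 0.00 in each comparison of brain lines, with a 95% confidence interval of -0.20 to 0.19 in both. Cxcl5 had -0.21 against primary lines (-0.70 to 0.28) and -0.68 against lung lines (-1.16 to -0.19, adjusted p = 0.170). Tnf and Tnfsf11 had intervals of -0.13 to 0.29 and -0.36 to 0.28 against primary lines. For Tslp, a cytokine of epithelial cells that acts on dendritic cells, the interval against primary lines was -1.35 to 0.52, wide enough to hold changes in either direction.

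The variation among lines of the same origin was large for many of the genes. Of the 41, 16 had a residual SD above the 90th percentile of all genes, and 6 (Cxcl10, Ccl5, Il1a, Il11, Il24 and Tslp) above the 99th. In Tslp, brain line 3 had 8.76 while the other brain lines had 10.42 and 10.41, lung lines had 10.69, 11.28 and 10.23, and primary lines had 9.99, 10.41 and 10.45. In Il1a, brain line 2 had 5.67 while the other brain lines had 3.77 and 3.75, lung lines had 3.67, 3.91 and 3.62, and primary lines had 3.46, 3.42 and 3.50. A single brain line stood apart in each, and it was a different one. Il1b, the next coding gene to Il1a, had 3.59 in brain line 2, within its range of 3.45 to 3.60. Brain line 3, the low line in Tslp, also had the widest spread around the gene medians (interquartile range 0.178).

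**Figure D5:**
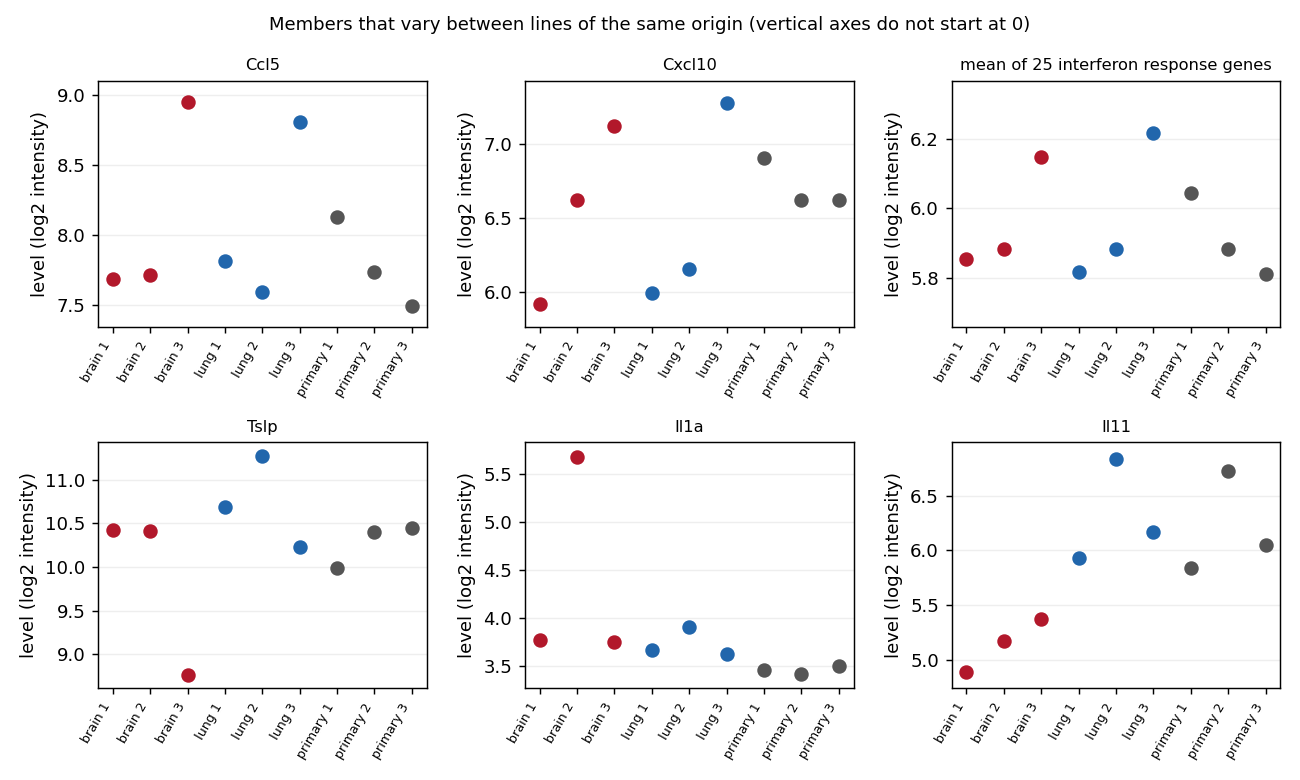
RMA log2 level of Ccl5, Cxcl10, Tslp, Il1a and Il11 in each of the 9 lines, and the mean of 25 interferon response genes, on axes that do not start at 0. Ccl5, Cxcl10 and the interferon mean are highest in brain line 3, lung line 3 and primary line 1 of their origins, Tslp is lowest in brain line 3, and Il1a is high in brain line 2 alone.

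Ccl5 and Cxcl10, chemokines that interferon signalling induces, varied between lines rather than between origins. Ccl5 had 7.69, 7.72 and 8.95 in brain lines, 7.81, 7.60 and 8.81 in lung lines and 8.13, 7.74 and 7.50 in primary lines. Cxcl10 had 5.92, 6.63 and 7.12 in brain lines, 6.0, 6.16 and 7.28 in lung lines and 6.91, 6.63 and 6.63 in primary lines. Both were highest in brain line 3, lung line 3 and primary line 1 of their origins. Neither passed in a comparison of origins, with log2 changes against primary lines of 0.33 ± 0.38 for Ccl5 and -0.16 ± 0.35 for Cxcl10. The sequence upstream of Cxcl10 is shown because it holds the letters of an interferon response element together with those of NF-kB and AP-1 sites. It is chr5:92348890-92349139 (minus strand) of GRCm38.p6, from RefSeq, 5′ to 3′, with the matches in capitals.
Cxcl10: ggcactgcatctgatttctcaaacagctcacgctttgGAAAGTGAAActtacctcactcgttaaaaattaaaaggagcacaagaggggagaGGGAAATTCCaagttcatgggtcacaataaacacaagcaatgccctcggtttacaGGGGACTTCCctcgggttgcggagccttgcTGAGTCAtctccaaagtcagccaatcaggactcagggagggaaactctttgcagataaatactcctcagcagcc
The match to the interferon letters begins at position -213, those to the NF-kB letters at -159 and -104, and that to TGANTCA at -74. The interferon letters were found in 3.44% of all promoters and in 2 of the 27 listed genes with an entry, Cxcl10 and Cxcl14, and TGANTCA in 7.81% and in 8 of 27. Cxcl14 was near background and nearly level over the lines.

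A list of 25 measured interferon response genes was set beside this line pattern after the values had been seen, as a description. In brain line 3, 15 of the 25 had their highest value among brain lines (60%, against 32.8% of all genes), in lung line 3, 19 of 25 (76%, against 27.3%), and in primary line 1, 17 of 25 (68%, against 23.4%). In all 3 of these lines at once, 11 of 25 did so (44%, against 2.37% of all genes), among them Irf7, a transcription factor of the interferon response, and Ifit1, Rsad2 and Oasl2, antiviral effectors. These 3 lines were picked by Ccl5, itself induced by interferon signalling, so the shares describe the lines and are no test. None of the 25 passed the test between origins, and 5 of them were above background in no line. Of the 41 cytokines and chemokines, Cxcl10, Cxcl16, Ccl5, Ccl9 and Osm had this pattern of highest lines (5 of 41, against 2.37% of all genes). The 3 lines were chosen as those in which Ccl5 was highest, so its place among the genes was fixed in advance. Cxcl10 had been seen to share these lines before the count, so the 5 are a description and no test of the list. Osm was above background in no line and Ccl9 in lung line 3 alone, so the order of their lines rests on values near background.

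The receptors and signalling genes around these ligands were taken from lists chosen with earlier results of these data known. Their calls come from the main fit alone and were not followed through the alternative settings. Of 50 measured receptor genes, 3 rose and 2 fell in brain against primary lines (3.13% of all genes were called in either direction), with a median log2 change of -0.01. Il18rap, a chain of the IL-18 receptor, rose (log2 change 1.04 ± 0.12 against primary lines, adjusted p = 0.00271, and 0.81 ± 0.12 against lung lines, adjusted p = 0.0117). Il18r1, another chain of that receptor, was not above background in any line, at 2.98 to 3.06. Il1r2, a decoy receptor for IL-1, rose as well (0.86 ± 0.11 and 0.60 ± 0.11, adjusted p = 0.00518 and 0.0271). It was dim, at 4.86 to 5.27 in brain lines, 4.46 to 4.50 in lung lines and 4.04 to 4.34 in primary lines. Il1r2 was above background in 8 lines and above the 75th percentile in none. Osmr, the oncostatin M receptor, fell (-0.80 ± 0.12 and -1.11 ± 0.12, adjusted p = 0.0100 and 0.00499). Cxcr4, the receptor of CXCL12, fell against primary lines (-0.78 ± 0.16, adjusted p = 0.0349) and did not pass against lung lines (-0.55 ± 0.16, adjusted p = 0.134). Its level, 4.67 to 5.78, was above background in all lines and above the 75th percentile in none. Against lung lines, 3 of the 50 rose and 1 fell (1.98% of all genes were called), and the third that rose was Tnfrsf10b, the mouse receptor for TRAIL (0.61 ± 0.11, adjusted p = 0.0230), which also rose against primary lines (0.54 ± 0.11, adjusted p = 0.0287). Its level was 9.08, 9.08 and 9.35 in brain lines, 8.35, 8.61 and 8.73 in lung lines and 8.58, 8.68 and 8.62 in primary lines, so it was highest in the brain lines, in which its ligand gene Tnfsf10 was lowest.

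Some receptors of the changed ligands were looked up after the values were seen. Ccr2, the receptor of CCL2, and Cxcr6, that of CXCL16, were not above background in any line, and Cx3cr1, that of CX3CL1, was at 5.01 to 5.30 in the 9 lines, above background by the lenient level and under the 75th percentile. For IL-24, Il20rb was at 6.46 to 6.75 and Il22ra1 at 4.36 to 4.70, above background in all lines. Il22ra1 was above the 75th percentile in none, and Il20ra, at 3.19 to 3.51, was not above background in any line. None of these receptor genes passed the test in a comparison of brain lines.

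Of 19 decoys, proteases and processing enzymes, 2 rose and none fell in each comparison of brain lines, Il1r2 and Mmp9. Il1r2 is also among the receptors counted above. Of all genes, 1.56% rose against primary lines and 0.913% against lung lines. Mmp9, a gelatinase that also cleaves chemokines, had 8.34, 8.21 and 9.0 in brain lines, 7.34, 7.01 and 7.20 in lung lines and 7.04, 7.04 and 6.91 in primary lines. All brain lines were above all others (log2 change 1.52 ± 0.18 against primary lines, adjusted p = 0.00336, and 1.33 ± 0.18 against lung lines, adjusted p = 0.00899).

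Of 28 NF-kB components and feedback genes, 3 rose and none fell in brain against primary lines (1.56% and 1.57% of all genes), and the median log2 change of the list was 0.14, against 0.00 over all genes. Tnip1, a feedback inhibitor of the pathway, rose (0.89 ± 0.09, adjusted p = 0.00159), as did the subunit genes Rel (0.66 ± 0.10, adjusted p = 0.00886) and Nfkb2 (0.58 ± 0.11, adjusted p = 0.0250). Against lung lines 2 rose and 1 fell (0.913% and 1.07% of all genes), Tnip1 (0.50 ± 0.09, adjusted p = 0.0217), Rel (0.56 ± 0.10, adjusted p = 0.0229) and, lower, Ikbkg, a subunit of the IkB kinase complex (-0.45 ± 0.09, adjusted p = 0.0329). The other 25 genes of the list did not pass against primary lines.

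Of 27 JAK-STAT components and feedback genes, Cebpb, a transcription factor of the IL-6 response, fell in both comparisons (-0.49 ± 0.09 against primary lines, adjusted p = 0.0239, and -0.51 ± 0.09 against lung lines, adjusted p = 0.0253), and no other passed, where 1.57% and 1.07% of all genes fell. Of 55 other secreted cytokines and chemokines that the list of 41 leaves out, 1 passed in brain against primary lines, Clcf1, a cytokine of the CNTF group, against 3.13% of all genes, and none passed against lung lines. It had 7.61, 7.77 and 7.49 in brain lines, 8.45, 7.90 and 8.03 in lung lines and 8.58, 8.60 and 8.05 in primary lines, and fell against primary lines (-0.79 ± 0.17, adjusted p = 0.0430). Of these 55, 25 were not above background in any line.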

How the data were processed

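The deposited values are RMA intensities on what their range shows to be a log2 scale, per the submitters' processing notes, which name RMA (background correction, quantile normalization and a summary per probe set). Its version is not given in the sources used here, nor is a genome build. The table has no depth or detection p, and precision is limited by the number of arrays. Of 35557 probe sets, 21789 had 1 symbol in the platform annotation, 1621 several and 12147 none, which left 19938 genes, each taken from its brightest probe set.

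All genes were fitted with limma 3.58.1 in R 4.3.3 (lmFit and eBayes, 1 coefficient per origin, 9 arrays, 6 residual and 3.72 prior degrees of freedom, two-sided), and p-values were adjusted by Benjamini-Hochberg over all 19938 genes. Values after ± are standard errors. The p-values measure the spread between lines of the same origin, which share a line name. The labels do not say whether these descend from 1 variant, and a spread between variants would then not be covered. The procedure was tested on simulated data with independent noise in each line. That run does not cover the shared deviations of same-numbered brain and lung lines.

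The members and lists were chosen with earlier results of these data known. All 41 members are named, and of each other list up to 4 called genes per comparison, by size of change. RMA gave the same value on 3 or more arrays for 35.09% of genes, 11 of the 41 among them. Same-numbered brain and lung lines, which come from different mice, deviated together (correlations 0.284, 0.13 and 0.241), so blocked values are given for that comparison where they change a call.

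Promoters, 250 bases before to 50 after a gene's start, came from RefSeq (GRCm38.p6) and were searched on both strands. Percentages with a motif are per promoter, and counts of listed genes are per gene with any matching promoter, so the units differ.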

Additional observations from a re-analysis of the deposited data

How the results depend on the processing

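The alternatives were normalization, centring, a filter on dim genes, another variance prior, a replicate block, every probe set as its own feature, only the 6 arrays compared, each line left out, and, chosen after seeing the data, brain line 3 and lung line 1 left out together. Of the 41 genes, 5 were called in brain against primary lines, and 9 with the replicate block, 2 over every probe set, 2 with only the 6 arrays compared, 2 to 5 without 1 line each and 2 without brain line 3 and lung line 1. In brain against lung lines the count was 4, and 6 with the replicate block, 1 over every probe set, 2 with 6 arrays, 1 to 4 without 1 line each and 2 without those lines. The F test called 4, and 8 with the replicate block, 2 over every probe set and 2 to 5 without 1 line each. Lung against primary lines gave 0 under each alternative. Single genes outside the 41 were not followed through the alternatives. The block added Il18, Il11, Lif and Il23a in brain against primary lines. Correlations of same-numbered lines there were -0.0442 to 0.0666, with 2 of 6 lines closest to their own number. In brain against lung lines they were 0.13 to 0.284, with 6 of 6. The labels repeat the same mouse numbers in each origin, and what a shared number marks is not stated. The count above background in all lines was 25, and 13 at the 75th percentile, 3 at the 90th and 25 to 26 without 1 line each. No log2 change of the 41 genes changed sign past the threshold in the alternatives run, 48 single results lost and 18 gained a call, and the cause was not tested. Over all genes, 624 were called in brain against primary lines (246 over every probe set, 197 with 6 arrays, 273 to 556 without 1 line, 323 without brain line 3 and lung line 1) and 395 against lung lines (92, 107, 69 to 417, and 87). Centring arrays on their medians turned the split in brain against primary lines to 313 higher and 199 lower, against 311 and 313.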
